A study of Mus musculus with 4 samples.

Results

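Pax7, Myf5, Myod1, Myog, Myh3, Actc1, Tnnt3, Tnnc1, Ttn and Des are 10 genes of the skeletal muscle lineage, and their RNA was measured in cultures of mouse embryonic fibroblasts (MEFs). They were chosen by gene symbol as the rows of the count matrix that carry these names. All 10 genes were found among the 55487 genes counted, and 8 of them were among the 19384 genes with at least 10 counts over all libraries, on which the tests were run. The remaining 2, Pax7 and Myf5, fell below that limit and are described by their counts.

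Skeletal muscle forms from progenitor cells that carry the paired-box factor Pax7. The myogenic regulatory factors Myf5 and Myod1 commit these cells to the lineage as myoblasts, and Myog then drives their differentiation. Differentiating myoblasts leave the cell cycle, fuse to myotubes and build sarcomeres, in which embryonic and cardiac-type isoforms precede the adult ones. MEFs are made from minced embryos, in which developing muscle is among the tissues that can be carried into culture.

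The study examined how pigment epithelium-derived factor (PEDF), a secreted glycoprotein, changes gene expression in MEFs. Wild-type C57BL/6J MEFs, at passage 2 by the sample labels and a later passage by the study's text, were left untreated as the control or received PEDF at 100 ng/mL for 24 h, and polyadenylated RNA was sequenced. Each of 2 experiments used its own embryos and gave 1 control and 1 PEDF library, so each group has 2 libraries, and the control and PEDF cultures of an experiment came from the same MEF preparation. No group carries a transgene or a deletion, and MEFs are a mixed primary culture and not a clone. The counts summed to between 14722848 and 18144640 per library, and 3 counts correspond to 0.168 to 0.203 CPM, the count scaled to the size of the library and not to the length of the gene. All 12 fibroblast markers examined, among them Col1a1, Pdgfrb and Thy1, passed the limit of 10 counts. In TPM, the deposited measure that also divides by gene length, the fibroblast markers summed to between 13421 and 17671, and the 10 muscle genes to between 548 and 794.

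Short stretches of 3 promoters are shown because they hold the textbook elements of muscle gene promoters found in this set. RefSeq (GRCm38.p6) gave a promoter of 300 bases, from 250 before to 50 after the start, for 8 of the 10 genes, not Myod1 or Tnnt3. Capitals mark the element in each stretch of 30 bases, and positions are counted from the RefSeq start. The stretch of Des lies on the plus strand at chr1:75360244-75360273, with the E-box CAGCTG, a site type of Myod1 and Myog, at -36 to -31. That of Ttn lies on the minus strand at chr2:76982694-76982723, with a match to the MEF2 element at -166 to -157. That of Actc1 lies on the minus strand at chr2:114052903-114052932, with a CArG box, the element of serum response factor, at -47 to -38.
Des: agagggatcctgCAGCTGtcaggggagggg
Ttn: ttctgaaaggCTAAATTTAGcactgccaat
Actc1: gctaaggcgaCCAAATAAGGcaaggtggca

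Both strands were searched, and matches to the MEF2 element and the CArG box can themselves contain TATAAA. The E-box CAGCTG was found in 1 of the 8 promoters, that of Des, and in 16.3% of 32851 mouse promoters of the same length. The MEF2 element was found in 1 of 8, that of Ttn, and in 3.19% of all promoters. The CArG box was found in 1 of 8, that of Actc1, and in 1.63% of all. TATAAA was found in the promoters of Actc1, Myf5 and Myh3, 3 of 8, and in 13.6% of all. These matches describe the sequence alone, and the libraries carry no measurement of factor binding.

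Per gene length, the levels of the genes spanned a wide range. Actc1, which encodes the cardiac alpha-actin that embryonic skeletal muscle also uses, was the highest, with 211 TPM in the control of experiment 1, 273 TPM in that of experiment 2, and 248 and 330.0 TPM in the corresponding PEDF libraries. Tnnc1, the slow and cardiac troponin C, followed at 113 ± 22.1 TPM (mean and SD over all libraries, n = 4), then Myh3, the embryonic myosin heavy chain, at 84.7 ± 16.4 TPM, and Des, the muscle intermediate filament desmin, at 79.1 ± 5.43 TPM. Myog was at 66.1 ± 8.53 TPM, the troponin T gene Tnnt3 at 29.8 ± 5.4 TPM and Myod1 at 23.1 ± 3.27 TPM. Ttn, which encodes the giant sarcomeric protein titin, was at 0.527 TPM, and Myf5 and Pax7 were lowest.

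Actc1 lay above Tnnc1 in every library, and its lowest value was above the highest of any other gene in the set. The ranges of Tnnc1 and Myh3, of Myh3 and Des, of Des and Myog, and of Tnnt3 and Myod1 over the libraries overlapped. Within each library Tnnc1 was nevertheless above Myh3, Des above Myog and Tnnt3 above Myod1, 4 of 4 times, and only Myh3 and Des changed order between libraries. Myog and Tnnt3, Myod1 and Ttn, and Ttn and Myf5 were apart in all libraries. The 345 merged exons of Ttn sum to 116825 bp, more than any single transcript holds, and its 252 to 510 counts per library exceeded the 183 to 295 of Myod1 in each of them.

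**Figure D1:**
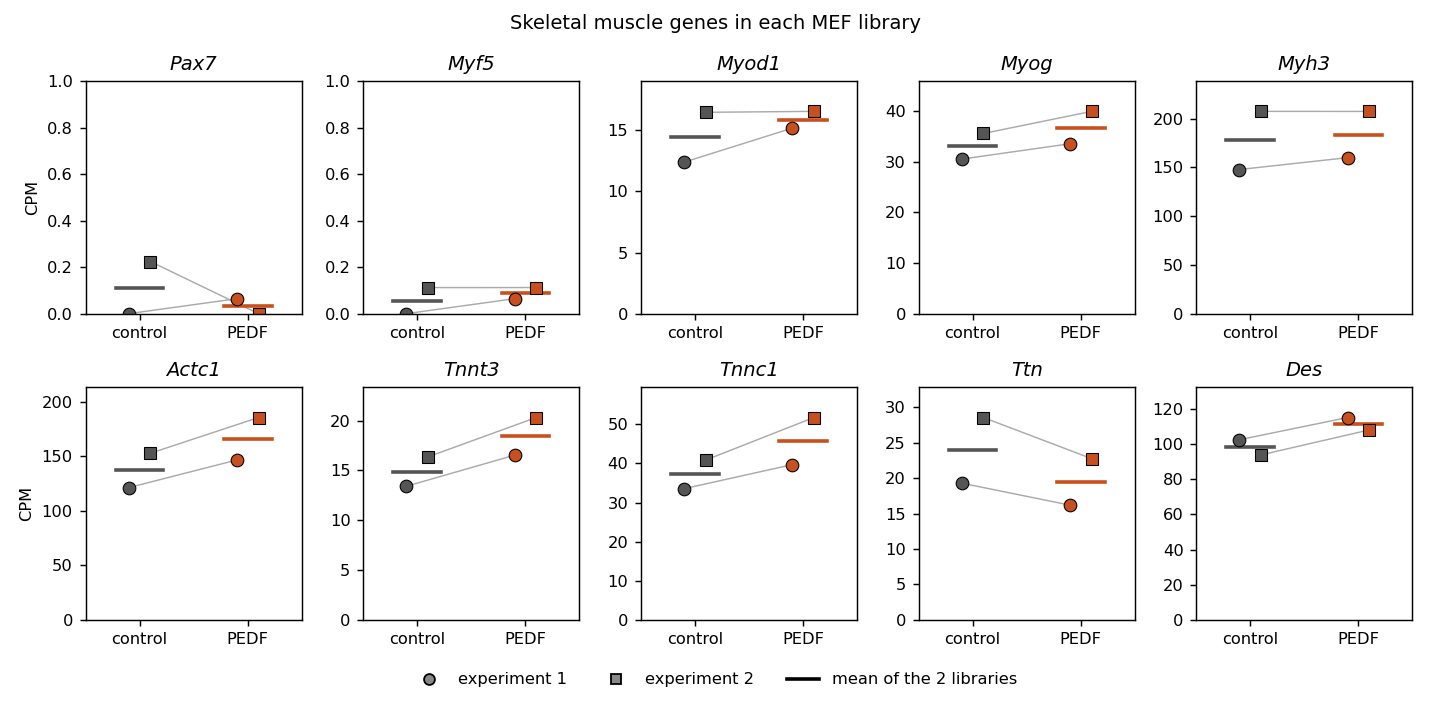
Level of each muscle gene in every library, in CPM on a linear scale that starts at 0, with a separate panel and scale for each gene. Control and PEDF libraries of each experiment are separate points, and short lines mark the mean of a group. In CPM, which is not scaled to gene length, Myh3 lies above Actc1 in all libraries, and Myf5 and Pax7 lie near or at 0.

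Among the factors that specify the lineage, the early and the late ones stood far apart. Pax7 (chromosome 4, 139737062 to 139833528, minus strand, GRCm38) had 0 and 4 counts in the controls and 1 and 0 with PEDF, experiment 1 being given first here and in what follows. Myf5 (chromosome 10, 107482908 to 107486134, minus strand) had 0 and 2 counts in the controls and 1 and 2 with PEDF. Each value was therefore near or below 3 counts, the limit that a count of 0 allows, and no difference between groups was detectable at this depth. Myf6, the remaining myogenic regulatory factor, had 0 counts in all 4 libraries.

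Myod1 (chromosome 7, 46376474 to 46379099, plus strand) was at 12.4 and 16.5 CPM in the controls and at 15.2 and 16.6 CPM in the PEDF libraries. The treatment groups overlapped, since the PEDF library of experiment 1 lay below the control of experiment 2. Myog (chromosome 1, 134289989 to 134292548, plus strand) was at 30.5 and 35.5 CPM in the controls and at 33.5 and 39.9 CPM with PEDF, and these groups overlapped as well. Within the 4 myogenic regulatory factors, Myog made up 72.7% to 75.4% of the summed TPM, Myod1 24.6% to 27.1% and Myf5 at most 0.165%.

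The sarcomere genes were read at 198 to 3701 counts per library. Myh3 (chromosome 11, 67078300 to 67102291, plus strand) was at 148 and 207 CPM in the controls and at 160.0 and 207 CPM with PEDF, so its libraries grouped by experiment and not by treatment. Actc1 (chromosome 2, 114047282 to 114053548, minus strand) was at 121 and 153 CPM in the controls and at 146 and 185 CPM with PEDF. Tnnc1 (chromosome 14, 31208312 to 31211729, plus strand) was at 33.5 and 40.9 CPM in the controls and at 39.7 and 51.7 CPM with PEDF. In both Actc1 and Tnnc1 the PEDF library was above its own control in each experiment, while the groups overlapped across experiments.

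Tnnt3 (chromosome 7, 142498836 to 142516009, plus strand) was at 13.4 and 16.4 CPM in the controls and at 16.5 and 20.3 CPM with PEDF. Des (chromosome 1, 75360329 to 75368579, plus strand) was at 102 and 93.9 CPM in the controls and at 115 and 108 CPM with PEDF. For Tnnt3 and Des every PEDF library was above every control library. Of all genes tested, 37.3% had treatment groups that did not overlap, 18.9% with PEDF higher, so 2 of 8 genes is near the background. Ttn (chromosome 2, 76703980 to 76982547, minus strand) was at 19.3 and 28.6 CPM in the controls and at 16.2 and 22.8 CPM with PEDF, lower with PEDF in each experiment and overlapping across them.

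Some annotated genes overlap these loci, and whether the counting used strand was not stated. Prr33, on the strand opposite to Tnnt3, shares 0 bp of exon with it and had 61 and 103 counts in the controls and 29 and 66 with PEDF. Nisch, opposite to Tnnc1, also shares 0 bp of exon with it and had 8350 and 11059 counts in the controls and 7941 and 9353 with PEDF. The part of Nisch reads in the counts of Tnnc1 was not tested. Gm13938 shares 453 bp of exon with Ttn and had at most 2 counts in a library. Gm15179 at Des, A530058N18Rik at Actc1 and Mir6923 at Myh3 had 0 counts in all libraries.

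Whether PEDF changed the muscle genes was asked in edgeR's quasi-likelihood test with Benjamini-Hochberg adjustment. With no covariate, 0 of the 8 genes tested passed an adjusted p of 0.05, against 0.00516% of all genes, a single gene. An unadjusted p under 0.05 was reached by 2 of the 8, Des and Tnnc1, and by 6.88% of all genes. The log2 fold changes were 0.28 for Actc1, 0.30 for Tnnc1, 0.31 for Tnnt3, 0.19 for Des, 0.15 for Myog, 0.13 for Myod1, 0.05 for Myh3 and -0.30 for Ttn.

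The experiments differed from each other in both treatments, and a fit in which the experiment is a block, so that a PEDF library is set against its own control, gave other calls. In that fit 3 of the 8 genes were higher with PEDF and 0 were lower, against 3.75% of all genes called, 1.67% higher and 2.07% lower. Actc1 rose by a log2 fold change of 0.28 (SE 0.05, adjusted p = 1.31e-05 in edgeR). Tnnc1 rose by 0.30 (SE 0.08, adjusted p = 0.00904 in edgeR), and Des by 0.19 (SE 0.06, adjusted p = 0.0309 in edgeR). The other 5 did not pass. Tnnt3 was at 0.31 (adjusted p = 0.148), Ttn at -0.29 (adjusted p = 0.0996), Myog at 0.15 (adjusted p = 0.410), Myod1 at 0.14 (adjusted p = 0.705) and Myh3 at 0.05 (adjusted p = 0.709), all from the blocked edgeR fit.

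The rises were small, and the call of Actc1 depended on the filter in DESeq2. With the same block, DESeq2's independent filtering left an adjusted p to 2 of the 8 genes, Actc1 and Myh3, and called Actc1 (adjusted p = 0.0223), against 8.7% of the 1345 genes that kept one, 2.38% higher. Tnnc1 and Des had no adjusted p there, and their log2 fold changes, 0.29 and 0.19, were close to those of edgeR. Without that filter all 8 genes had an adjusted p and DESeq2 called 0, with Actc1 at 0.274 and Tnnc1 and Des at 1.00 (DESeq2 adjusted p), against 0.33% of all genes called, 0.0671% higher. In edgeR without a block, leaving out 1 library moved the log2 fold change of Actc1 from 0.097 without PEDF of experiment 2 to 0.45 without control of experiment 2. That of Tnnc1 moved from 0.091 without PEDF of experiment 2 to 0.47 without PEDF of experiment 1, and that of Des from 0.12 without control of experiment 2 to 0.25 without control of experiment 1. In bulk RNA, more muscle cells in a culture and more muscle RNA per cell cannot be told apart.

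**Figure D2:**
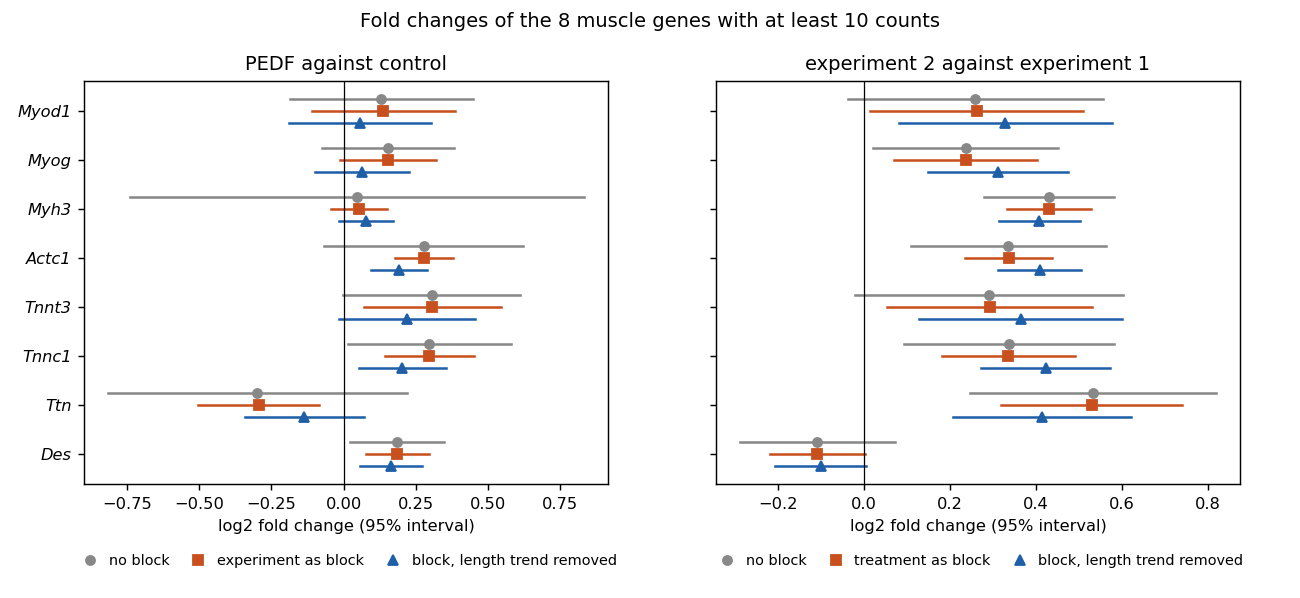
Log2 fold changes with 95% intervals for the 8 muscle genes tested, for PEDF against control on the left and for experiment 2 against experiment 1 on the right. Circles show the fit with no block, squares the fit with the other factor as a block, and triangles the blocked fit after removal of the trend with exon length. In the blocked fits all estimates but that of Ttn lie above 0 in the left panel, and all but that of Des in the right panel.

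Taken within each experiment, 6 of the 8 genes were higher with PEDF both times, 1 gene, Ttn, was lower both times, and 1 gene, Myh3, was not in the same direction. Of all genes tested, 30.1% were higher both times and 28.8% lower both times. The intervals below are exact 95% conditional intervals of the 2 counts and cover counting error only. The log2 ratio of PEDF to control for Actc1 was 0.27 (0.18 to 0.36) in experiment 1 and 0.28 (0.21 to 0.35) in experiment 2. For Tnnc1 it was 0.24 (0.07 to 0.42) and 0.34 (0.20 to 0.48). Both intervals excluded 0 for each of these genes, and the values of the experiments lay within each other's counting error.

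Des gave 0.17 (0.07 to 0.27) and 0.20 (0.11 to 0.30), and Tnnt3 gave 0.30 (0.03 to 0.58) and 0.31 (0.09 to 0.54). Ttn gave -0.25 (-0.50 to -0.003) and -0.33 (-0.52 to -0.14), the only member below 0 in both experiments. For Myog the ratios were 0.14 (-0.05 to 0.32) and 0.17 (0.01 to 0.32). The ratio of Myod1 was 0.29 (0.01 to 0.58) in experiment 1 and 0.01 (-0.23 to 0.24) in experiment 2. Myh3 was 0.11 (0.03 to 0.20) in experiment 1 and -0.0003 (-0.07 to 0.07) in experiment 2. For Myod1 and Myh3 the interval lay above 0 in experiment 1 and included 0 in experiment 2.

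In 6 of the 8 genes the fold change between the MEF preparations was larger than that between the treatments, although this contrast of sizes was not itself tested. Each experiment is 1 preparation with 2 cultures, so these p-values measure the spread between cultures and not between preparations. These were Actc1, Tnnc1, Myh3, Myog, Myod1 and Ttn, and in each of them both libraries of experiment 2 were above both libraries of experiment 1. Of all genes tested, 37.5% had experiments that did not overlap, 19.1% with experiment 2 higher. Library by library, 7 of the 8 genes, all but Des, were higher in experiment 2 in both treatments, which 29.4% of all genes were. With no block, 1 of the 8 genes passed the test, Myh3, higher in experiment 2 by a log2 fold change of 0.43 (SE 0.07, adjusted p = 0.0319 in edgeR), against 0.0567% of all genes, 0.0155% higher.

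With the treatment as a block, 4 of the 8 were higher in experiment 2 and 0 lower, against 4.49% of all genes called, 2.3% higher and 2.19% lower. Myh3 was higher by 0.43 (adjusted p = 6.31e-15), Ttn by 0.53 (adjusted p = 9.07e-05), Actc1 by 0.34 (adjusted p = 1.99e-08) and Tnnc1 by 0.34 (adjusted p = 0.00147), all in edgeR. With no block, leaving out 1 library moved Actc1 from 0.19 without PEDF of experiment 2 to 0.48 without PEDF of experiment 1, and Tnnc1 from 0.15 without PEDF of experiment 2 to 0.50 without control of experiment 2. Ttn moved from 0.36 without control of experiment 2 to 0.68 without PEDF of experiment 2, and Myh3 stayed between 0.38 and 0.49. Des did not share the direction of these genes, at -0.11 (adjusted p = 0.347 in edgeR). Actc1 and Tnnc1 were thus called both for PEDF and for the experiment, whereas Myh3 and Ttn were called for the experiment and Des for PEDF in the blocked fits. Whether the PEDF difference itself varied between genes was not tested.

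The same comparisons were made for 103 genes of skeletal muscle in 7 lists, which include the 10 genes, and 94 of them had at least 10 counts. For PEDF with the experiment as a block, 10 of the 94 were higher and 1 was lower, where 1.67% of all genes were higher and 2.07% lower, and 0 of the 94 passed without the block. DESeq2 with the block gave an adjusted p to 2 of the 94, of which it called Actc1, and without its independent filtering it called 0 of 94, with an unadjusted p under 0.05 for Actc1, Mylpf and Eno3 among the 11 genes called in edgeR. Their median log2 fold change was 0.08, beside 0.002 over all genes tested. The thin filament and troponin list had 4 higher genes of 14, Acta1, Actc1, Tnni1 and Tnnc1, and a median of 0.23. Acta1, the skeletal alpha-actin, rose by 0.19 and Tnni1, the slow troponin I, by 0.23.

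The thick filament list had 3 higher genes of 15, the myosin light chains Myl1 at 0.39, Myl4 at 0.25 and Mylpf at 0.31. The list of titin, Z-disc, M-band and intermediate filament genes had 1 higher, Des, and 1 lower of 18. The lower gene was Myom1, which encodes the M-band protein myomesin, at -0.37 (adjusted p = 0.0221 in edgeR). Excitation-contraction coupling had 1 higher of 19, Srl, at 0.40, and energy metabolism 1 higher of 8, the muscle enolase Eno3, at 0.35. Single libraries weighed on these values as well. In the fit with no block, leaving out PEDF of experiment 2 gave the lowest value for each of the 7 higher genes outside the set, 0.020 for Myl4, 0.033 for Tnni1, 0.049 for Mylpf, 0.074 for Acta1, 0.19 for Srl, 0.24 for Myl1 and 0.24 for Eno3. Their highest values, 0.46, 0.41, 0.54, 0.30, 0.61, 0.52 and 0.45 in the same order, came without PEDF of experiment 1, or for Srl without control of experiment 2. Myom1 moved from -0.73 without PEDF of experiment 2 to -0.080 without PEDF of experiment 1.

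None of the 14 progenitor and determination factors tested and none of the 6 fusion genes passed. In these lists the factor Mef2c was at 0.19, the integrin Itga7 at -0.36 and Kirrel3 at -0.09, and none of these values passed the test.

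For experiment 2 against experiment 1 with the treatment as a block, 20 of the 94 were higher and 0 lower, where 2.3% of all genes were higher and 2.19% lower, with a median of 0.27 beside 0.0007 over all genes tested. Besides the genes above they included Cdh15, an adhesion molecule of myoblasts, Actn2, the Z-disc alpha-actinin, Atp2a1, the calcium pump of fast muscle, and Chrng, the fetal subunit of the acetylcholine receptor. In the fit with no block, leaving out 1 library kept Cdh15 between 0.54 and 0.64 and Actn2 between 0.46 and 0.68. Others of the 20 moved more, Myom1 from 0.072 to 0.73, Casq2 from 0.12 to 0.74 and Mylpf from 0.090 to 0.56. With no block 2 of the 94 passed, Myh3 and Actn2.

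Fold changes of PEDF against control moved with gene length. Over all genes, the log2 ratio of PEDF to control fell by 0.0402 per doubling of summed exon length in experiment 1 and by 0.0560 in experiment 2. Among the 73 muscle genes with at least 100 counts, all 16 with under 2000 bp of exon had a positive fold change in the blocked fit, with a median of 0.31. Over all genes with at least 100 counts, 1747 of the 2597 in that class were positive. The 33 genes of 2000 to 5000 bp had a median of 0.06, and the 24 of 5000 bp or more a median of -0.10. The same medians over all genes with at least 100 counts were 0.08, 0.03 and -0.05. Across the 73 genes, the correlation of the fold change with log2 length was r = -0.53, given as a description, since these genes share the libraries.

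The genes of the set followed this order in part. Tnnc1 with 1041 bp of exon, Tnnt3 with 1583 bp and Actc1 with 1618 bp had the 3 highest PEDF fold changes, and Ttn with 116825 bp had the lowest. Myog with 1495 bp and Myod1 with 1861 bp, at 0.15 and 0.14, were below Des with 3754 bp, at 0.19. After removal of the length trend in the blocked fit, Actc1 alone of the 8 passed, at 0.19 (adjusted p = 0.00993 in edgeR), against 2.21% of all genes called, 0.95% higher, and 5 of the 94 muscle genes were higher and 0 lower. These were Actc1, Mef2c, Myl4, Srl and Eno3, of which Mef2c had not passed before the trend was removed. The median of the muscle genes under 2000 bp was then 0.22, beside 0.0006 over all genes of that class.

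The difference between the experiments did not follow length in this way. Over all genes the ratio of experiment 2 to experiment 1 rose with length, by 0.0504 per doubling in the controls and by 0.0346 with PEDF. The muscle genes of the 3 length classes had medians of 0.25, 0.23 and 0.29, and r over the 73 genes was 0.12. After removal of the trend, 5 of the 8 genes were higher in experiment 2, against 3.15% of all genes called, 1.75% higher, the added one being Myog at 0.31 (adjusted p = 0.0104 in edgeR).

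**Figure D3:**
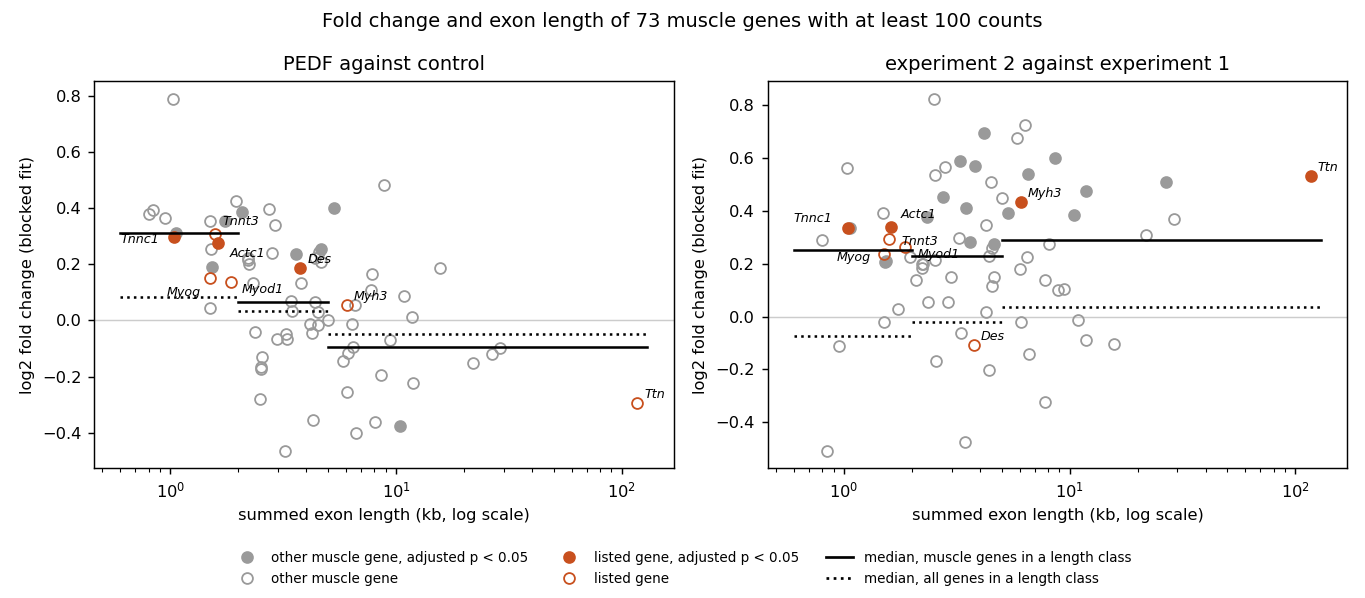
Log2 fold change in the blocked fits against summed exon length in kb (log scale) for the 73 muscle genes with at least 100 counts, PEDF against control on the left and experiment 2 against experiment 1 on the right. Filled points passed an adjusted p of 0.05, orange points belong to the set of 10, and lines are medians in length classes, solid for muscle genes and dotted for all genes. In the left panel the muscle medians fall from 0.31 to -0.10 with length, and in the right panel they lie between 0.23 and 0.29.

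Compared in TPM within the families given below, embryonic and slow isoforms were at the highest levels. The myosin light chains were not compared in this way, and their fast forms were read more than their slow ones. The fast Mylpf had 542 to 1010 counts per library and the slow Myl2 had 3 to 7. The fast Myl1 had 284 to 487 and the slow Myl3 had 7 to 19, while the embryonic Myl4 had 641 to 1102. Myh3 made up 89.7% to 91.6% of the summed TPM of 6 skeletal myosin heavy chains, Myh7, the slow and cardiac chain, 4.61% to 6.0%, and Myh8, the perinatal chain, 2.94% to 3.12%. Of the adult fast chains, Myh1 made up 0.634% to 0.902%, Myh2 at most 0.185% and Myh4 at most 0.370%. Actc1 made up 59.9% to 63.4% of both sarcomeric actins, and Acta1 made up the rest.

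Troponin C was 82.3% to 84.3% Tnnc1, and troponin I was 81.8% to 85.8% Tnni1. Troponin T was spread over its 3 genes, with Tnnt1, the slow form, at 41.5% to 44.2%, Tnnt3, the fast form, at 33.0% to 36.9% and Tnnt2, the cardiac form, at 19.9% to 22.8%. Chrng made up 95.8% to 100% of the TPM of the fetal and adult acetylcholine receptor subunits, and the adult Chrne had 0 to 3 counts per library. The ranges of these shares were narrow over the libraries, across both treatments and both experiments.

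**Figure D4:**
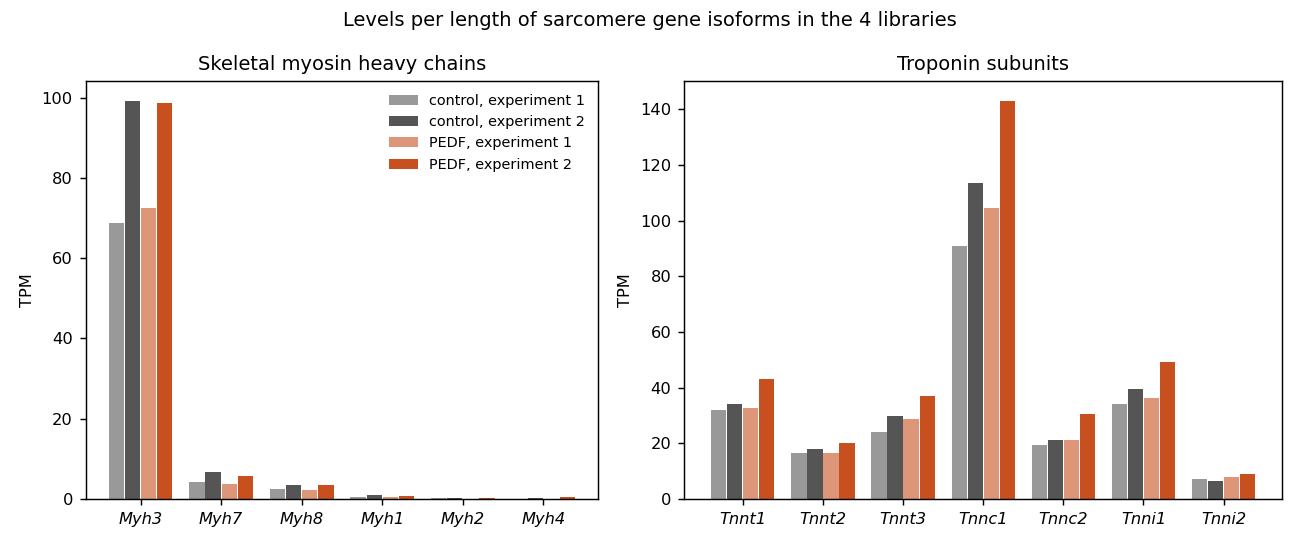
Levels in TPM, as a bar for every library, of the skeletal myosin heavy chain genes on the left and of the troponin genes on the right. Myh3 is the highest myosin heavy chain in each of the 4 libraries. Tnnc1 lies above Tnnc2 and Tnni1 above Tnni2 in each of them, and troponin T is spread over 3 genes.

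Markers of other cell types were examined beside the muscle genes, since Actc1, Tnnc1, Tnnt2 and Myh7 are also made in heart and Des in smooth muscle. The 10 cardiac markers summed to 13.6 to 18.9 TPM per library, 17.7 to 18.9 in the controls and 13.6 to 14.9 with PEDF. The 2 of them with the highest mean CPM were read in every library, the cardiac factor Gata4 at 97 to 130 counts and Myh6 at 43 to 113. Another cardiac factor, Nkx2-5, had at most 2 counts in a library and Nppa at most 14. Whether cardiac cells contributed to the levels of the muscle genes was not tested. Of the 9 cardiac markers tested for PEDF with the block, 0 passed in either direction, and their median was -0.36. Between the experiments 1 of these, the cardiac myosin Myh6, was higher in experiment 2, at 0.70.

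Smooth muscle and myofibroblast markers were abundant, with a sum of 5007 to 5318 TPM per library led by Acta2 and Tagln, and 0 of 10 passed for PEDF. The sums in the controls, 5068 and 5318 TPM, overlapped those with PEDF, 5007 and 5313 TPM. For the experiments, 1 of these 10 was higher, Synpo2, and 2 were lower, Myh11 and Actg2. Whether smooth muscle cells contributed to the level of Des was not tested.

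Among the 12 fibroblast markers, 3 were lower with PEDF, Col1a1 with a log2 fold change of -0.24, Col1a2 at -0.12 and Pdgfrb at -0.22, and 2 were higher, the proteoglycan genes Dcn at 0.35 and Lum at 0.34, all in the blocked fit. Their summed level was 14860 and 17671 TPM in the controls and 13421 and 15182 TPM with PEDF. Relative to its own control, the summed TPM of the 10 muscle genes was 1.14 times as high with PEDF in experiment 1 and 1.16 times in experiment 2, while that of the fibroblast markers was 0.903 and 0.859 times as high. The latter sum was carried by Col1a1, at 8332 and 10587 TPM in the controls and 7226 and 8469 TPM with PEDF, and over the 12 fibroblast markers the blocked median was -0.019, with 6 of 12 above 0. The part of this shift in the calls of Actc1, Tnnc1 and Des was not tested. For endothelial, macrophage, epithelial and neural markers, 0 of the 5, 6, 6 and 6 genes tested passed for PEDF, and Cldn5, an endothelial junction gene, had 0 counts throughout.

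Between the experiments these markers also moved. With the treatment as a block, Col1a1 at 0.23 and Pdgfrb at 0.25 were higher in experiment 2, and Twist1 at -0.25, Dcn at -0.32 and Lum at -0.42 were lower. The estimates of all 6 macrophage markers were below 0, with a median of -0.27, although 0 passed. Of the 6 epithelial markers 5 had estimates below 0, with a median of -0.33, and 1, Krt8, was lower at -0.69 (adjusted p = 4.96e-07 in edgeR). None of the 5 endothelial and 6 neural markers passed, with medians of 0.05 and 0.12. The part of these shifts in the difference of the muscle genes between the experiments was not tested.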

How the data were processed

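Per the labels, polyadenylated RNA was sequenced from directional libraries of 2 control and 2 PEDF cultures. The submitters' processing notes name FastQC 0.11.7, Trimmomatic 0.38, HISAT2 2.1.0, SAMtools 1.9, featureCounts 1.6.3 and mm10. The authors deposited raw counts per gene, without normalization, and TPM values. The annotation and the strand setting of the counting are not given in the sources used here, and coordinates equalled those of GENCODE M21 for 54784 of 55487 genes. Exon lengths were taken from that release, since the tables used here hold no length.

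The tests on counts used edgeR 4.0.16 under R 4.3.3 (TMM factors, robust quasi-likelihood test, at least 10 counts in total, Benjamini-Hochberg adjustment over all genes tested). SEs were derived from the fold change and the F statistic, and CPM uses TMM-scaled library sizes. The labels state that an experiment had its own embryos, and the experiment difference in controls correlated with that in PEDF cultures (r = 0.423 across 10722 genes whose mean log2 CPM exceeded 3), so a second fit took the experiment as a block. Alternatives included DESeq2 1.42.0, RLE factors, other filters, limma 3.58.1 on log2(TPM + 1) and log2(TPM + 0.1), a spline of log2 exon length with 5 degrees of freedom removed as an offset, and each library left out. The grouping by length among genes with at least 100 counts was added after the data were seen. The tests were checked on simulated data.

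The 10 genes and the lists were chosen with earlier results of these data known. The rule for other named genes took the 2 highest genes of each list by mean CPM and genes that overlap a member, of which 1 gene is not reported here. Genes named because they passed a test, and Pax3, Myf6, Mymk, Mymx, Myh1, Myh2, Myh4, Myh7, Myh8, Myl2, Myl3, Tnnt1, Tnnt2, Chrng, Chrne, Nkx2-5, Nppa, Thy1 and Cldn5, were chosen after their values were seen. The rule would have named genes with a pattern like that of the set, but the median profile of the 8 genes spanned 0.483 on the log2 scale, under the minimum of 1, so none is named.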

Additional observations from a re-analysis of the deposited data

Results flagged for a closer look

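For Myh3 the sign of the difference between PEDF and control was not the same in the experiments. The log2 ratio of PEDF to control was 0.114 in experiment 1 and -0.000254 in experiment 2. The difference was not tested, because each experiment has 1 library per condition. With 95% counting intervals of 0.03 to 0.20 and -0.07 to 0.07, the intervals overlapped.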

How the results depend on the processing

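For PEDF against control, 1 gene passed with no block, 4 with DESeq2, 106 with no filter on low counts, and 0 with filterByExpr and with limma at either pseudocount. With the replicate block 726 genes passed, 428 with the block and the length trend removed, 117 with DESeq2 and the block, and 64 with DESeq2 and the block but no independent filtering, which was added after the data were seen. Leaving out a library (named by its group and experiment) gave 2 to 205 genes (2 without control 2 or PEDF 1, 24 without PEDF 2, 205 without control 1), the lone sample of a group being assumed to vary like the other group. Members passing for PEDF were 0 with no block, 3 with the replicate block, 1 with the block and the length trend removed, 1 with DESeq2 and the block, where 2 of 8 had an adjusted p, and 0 of 8 without its independent filtering. For the experiments, 11 genes passed with no block, 139 with no filter, 0 with limma at either pseudocount, 870 with the treatment as a block and 610 with the length trend also removed, and 21 to 480 with a library left out (21 without PEDF 1, 61 without control 2, 129 without control 1, 480 without PEDF 2). Members passing there were 1 with no block, 3 with no filter, 0 with filterByExpr and with limma, 4 with the treatment block, 5 with the length trend also removed, and 1 to 3 with a library left out (3 without control 2, 2 without PEDF 2). The cause of these changes was not tested. The PEDF fold change turned its direction for 3 members: Myod1 was -0.054 without control 1 (range -0.054 to 0.36), Ttn 0.019 without control 2 (range -0.57 to 0.019), and Myh3 -0.18 without control 1 and -0.15 without PEDF 2 (range -0.18 to 0.31). These 4 were the reversals among 40 fold changes of muscle genes recomputed. With 0 to 4 counts per library, Pax7 and Myf5 could not be compared at this depth.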

Other observations

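The fusion genes Mymk and Mymx, which encode membrane proteins that join myoblasts, were present in all libraries. Mymk was at 8.81 and 9.47 CPM in the controls and at 9.78 and 12.01 CPM with PEDF. Mymx was at 1.897 and 2.86 CPM in the controls and at 3.34 and 4.88 CPM with PEDF. The groups did not overlap for either gene, which held for 37.3% of all genes tested, and neither passed the test with or without the block. Pax3, a paired-box factor of muscle progenitors, was at 0 and 0.392 CPM in the controls and at 0.772 and 0.729 CPM with PEDF. These are 0 and 7 counts in the controls and 12 and 13 counts with PEDF. Its groups did not overlap either, and it did not pass with the block (adjusted p = 0.235 in edgeR) or without it (adjusted p = 0.733 in edgeR). Prr33, which lies opposite to Tnnt3, was at 4.13 and 5.77 CPM in the controls and at 1.87 and 3.70 CPM with PEDF.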
